A study of Mus musculus with 2 samples.

Results

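The cornea is clear and has no vessels, and 5 genes of its angiogenic balance were followed here across its cell clusters. They are *Vegfa* and *Vegfc*, which encode ligands that make blood and lymph vessels grow, *Flt1*, which encodes a VEGF receptor, and *Thbs1* and *Serpinf1*, which encode inhibitors of vessel growth. The 5 genes were taken by symbol, with no threshold on a measured value, although earlier results of these data were known when they were chosen. All 5 were found among the 20198 genes of the count table. Their UMI counts (unique molecular identifiers, each marking 1 captured transcript) were summed over the cells of each cluster in each library, and levels are given as UMIs of the gene per 1e+06 UMIs of the cluster (CPM).

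Mouse corneas were dissociated, by dispase and trypsin for the epithelium and collagenase for the rest, and sequenced on the 10x Genomics droplet platform. The UW library came from unwounded corneas. The W library came from corneas taken 24 h after the central epithelium, inside a trephine mark of 2.5 mm, had been scraped off. Each library pooled 8 corneas of 4 mice, which were male and 6 to 8 weeks old in both conditions, and their strain is not given in the sources used here. The wounded mice were anaesthetised with pentobarbital sodium, procaine hydrochloride was put on the eye, the wound was stained with sodium fluorescein, and ofloxacin was given against infection. Whether the unwounded mice received these agents is not given in the sources used here, so they and the wound cannot be told apart. No genetic change was stated for either group.

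VEGF-A signals mainly through the receptor KDR on endothelial cells, with neuropilins as coreceptors, and VEGF-C signals through FLT4 in lymphatic endothelium. FLT1 binds VEGF-A tightly but signals weakly, and its soluble form, made from a shorter transcript, is known to trap VEGF-A in the cornea. Thrombospondin-1, the product of *Thbs1*, slows endothelial cells through CD36 and CD47, and PEDF, the product of *Serpinf1*, is a secreted serpin that is abundant in the eye.

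In GENCODE M21 (GRCm38), *Vegfa* lies at chr17:46016993-46032369 on the minus strand, *Vegfc* at chr8:54077606-54187096 on the plus strand, *Flt1* at chr5:147561604-147726011 on the minus strand, *Thbs1* at chr2:118111876-118127133 on the plus strand and *Serpinf1* at chr11:75409769-75422701 on the minus strand. *Flt1* has 2 coding transcripts, one of 30 exons that ends at 147561604 and one of 13 exons that ends at 147635159. The deposited counts are per gene, so the full and the short form were not told apart.

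The 250 bases before the start of 4 of the genes were found in RefSeq (GRCm38.p6), and are shown because the genes were compared with hypoxia genes below. *Thbs1* had no entry. For *Vegfa* the outermost start was taken, and the window of *Serpinf1* overlaps the start of the gene as GENCODE draws it. Capitals mark the hypoxia response core (ACGTG or GCGTG), the Sp1 GC box (GGGCGG), the TATA box (TATAAA) and the AP-1 site (TGANTCA), searched on both strands. The windows were chr17:46032378-46032627 on the minus strand for *Vegfa*, chr8:54077282-54077531 on the plus strand for *Vegfc*, chr5:147726012-147726261 on the minus strand for *Flt1* and chr11:75422624-75422873 on the minus strand for *Serpinf1*.
Vegfa: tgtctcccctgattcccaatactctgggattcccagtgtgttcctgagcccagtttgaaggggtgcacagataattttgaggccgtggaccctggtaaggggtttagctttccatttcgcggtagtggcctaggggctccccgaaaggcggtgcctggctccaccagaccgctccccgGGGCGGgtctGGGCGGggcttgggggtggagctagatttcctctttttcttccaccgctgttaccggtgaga
Vegfc: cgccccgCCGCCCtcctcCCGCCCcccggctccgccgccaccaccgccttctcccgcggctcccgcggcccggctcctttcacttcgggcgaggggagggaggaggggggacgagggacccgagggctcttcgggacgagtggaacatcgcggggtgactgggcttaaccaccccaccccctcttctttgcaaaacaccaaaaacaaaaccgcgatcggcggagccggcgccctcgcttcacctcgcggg
Flt1: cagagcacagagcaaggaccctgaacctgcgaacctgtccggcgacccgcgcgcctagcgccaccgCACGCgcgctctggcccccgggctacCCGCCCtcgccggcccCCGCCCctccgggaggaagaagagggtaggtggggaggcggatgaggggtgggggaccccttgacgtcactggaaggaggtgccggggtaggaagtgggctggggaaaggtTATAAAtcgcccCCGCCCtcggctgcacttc
Serpinf1: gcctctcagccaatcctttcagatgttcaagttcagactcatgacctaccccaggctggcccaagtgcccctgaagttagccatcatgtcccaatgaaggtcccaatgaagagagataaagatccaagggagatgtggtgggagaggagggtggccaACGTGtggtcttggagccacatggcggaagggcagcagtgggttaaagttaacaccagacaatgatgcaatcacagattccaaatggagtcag
A hypoxia core stood in the *Flt1* and *Serpinf1* windows and in 38.6% of the 32851 promoters of this length, so holding 1 was common. The window shown for *Vegfa* held none. A second listed *Vegfa* start (not printed) had its window at chr17:46025164-46025413, inside the gene and downstream of the outermost start. That window held 2, and whether this stretch within the gene acts as a promoter was not tested. The windows of *Vegfa*, *Vegfc* and *Flt1* held GC boxes, as did 32.7% of all promoters, and *Flt1* alone of the 4 held TATAAA, found in 12.4% of all. None of the 4 held TGANTCA, found in 6.75% of all. The G and C content was 71.6% for *Vegfc*, 70.4% for *Flt1*, 59.2% for *Vegfa* and 51.6% for *Serpinf1*.

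The UW library held 16450 cells with a median of 22014 UMIs, and the W library 12417 cells with a median of 20290 UMIs. Each condition was 1 library, so library and wounding cannot be told apart, there was no replicate check, and no p-value was made. Intervals are 95% and cover counting error only. The 17 deposited clusters were used as numbered and were built from the same counts, so differences between clusters are descriptions. Clusters 0 (2369 UW and 1719 W cells, led by *Tacr3*, *Nxph4* and the keratocyte gene *Kera*) and 10 (565 and 632 cells, led by *Myoc*, *Penk* and *Wisp2* and also by *Col8a1*, a corneal endothelium gene, with *Lum* at 7196 CPM in UW) were stromal, 10 clusters were epithelial (13501 UW and 8507 W cells), and clusters 13 to 16 were immune. The immune clusters held 15 UW and 1530 W cells and were read in W only. Some 52 barcodes occurred in both libraries.

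Among clusters of at least 50 cells, *Vegfa* was highest in the stroma in both libraries, and it was higher in W in the stroma and in most epithelial clusters. Its level in keratocyte-like cluster 0 was 83.8 CPM in UW (interval 80.5 to 87.2) and 132.9 in W (129.0 to 136.9). In cluster 10 it was 67.2 in UW and 109.9 in W. Both stromal clusters thus stood higher in W, by a log2 ratio of W over UW of 0.67 (0.59 to 0.74) and 0.71 (0.53 to 0.88). With each cell thinned to 5000 UMIs, so that depth was equal, 30.8% of cluster 0 cells held a *Vegfa* UMI in UW and 47.1% in W. Thinning left out 51 and 11 shallower cells of cluster 0, and 367 and 176 of the epithelium. Without it, with median depths of 11853 and 17588 UMIs, the shares were 54.5% and 84.6%.

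Among epithelial clusters, the largest difference in *Vegfa* was in cluster 3 (1789 UW and 885 W cells), led by *Krt18*, *Ppbp*, *Dynap* and the basal integrin gene *Itgb4*. There its level was 11.0 CPM (359 UMIs) in UW and 63.3 CPM (1429 UMIs) in W, a log2 ratio of 2.53 (2.36 to 2.70) or 5.78-fold. The thinned share of cluster 3 cells with a *Vegfa* UMI was 4.92% in UW and 26.8% in W. Cluster 3 was also made of cells with other keratins in the 2 libraries, since the basal keratin gene *Krt14* stood at 1256 CPM in UW and 14011 CPM in W, and the corneal keratin gene *Krt12* at 29083 and 11905 CPM. Whether the same cells were compared was not tested.

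The other epithelial clusters held less *Vegfa* than cluster 3 in W, though clusters 2, 6, 8, 9 and 11 held more in UW, and their ratios were smaller. Cluster 1 stood at 4.69 and 18.1 CPM (log2 ratio 1.95), cluster 4 at 7.25 and 22.0 CPM (1.60), cluster 11 at 14.8 and 29.6 CPM (1.00) and cluster 6 at 15.9 and 24.5 CPM (0.62). The conjunctival-like cluster 5 stood at 9.91 and 13.8 CPM and cluster 8, led by cell division genes, at 16.6 and 21.7 CPM. In these 6 clusters the interval of the ratio lay above 0. Cluster 2 (15.5 and 16.9 CPM) and cluster 7 (6.89 and 8.12 CPM) had ratios whose intervals included 0.

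Cluster 9 went the other way. This cluster (521 UW and 956 W cells) was led by *Wfdc18*, *Dlk2* and *Ccdc3* and held the most *Vegfa* of the epithelium in UW, at 46.1 CPM, against 24.6 CPM in W. The log2 ratio was -0.91 (-1.10 to -0.71), and the thinned share of cells with a UMI was 19.6% in UW and 9.68% in W. In W its level no longer stood apart from those of clusters 6 and 4, whose intervals overlapped. Its keratins differed between the libraries as well, with *Krt12* at 5086 CPM in UW and 1368 in W.

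Over the summed epithelium, *Vegfa* was 11.5 CPM in UW and 24.2 CPM in W, a log2 ratio of 1.07 (1.01 to 1.13). The stroma held more of the *Vegfa* message than its share of cells. Clusters 0 and 10 gave 41.8% of all *Vegfa* UMIs in UW from 17.8% of the cells, and 44.7% in W from 18.9%. The epithelium gave 58.1% in UW and 49.6% in W.

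Of the immune cells in W, the neutrophil-like cluster 13 held 95.3 CPM of *Vegfa* (81.7 to 110.6), the monocyte- and macrophage-like cluster 15 (led by *Pf4* and *Ccl12*) 75.3 CPM and the unnamed immune cluster 14 (led by *Cd209a*, *Mgl2* and MHC class II genes) 50.7 CPM. T-like cluster 16 held 13.5 CPM, from 14 UMIs. The level in cluster 13 overlapped that of stromal cluster 10, although clusters 13 to 15 together gave only 4.85% of the *Vegfa* UMIs of W. RNA freed from broken keratocytes, estimated from *Kera*, *Lum* and *Dcn*, came to between 0.755 and 1.47 CPM of *Vegfa* in the W epithelium, far under the levels measured.

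**Figure D1:**
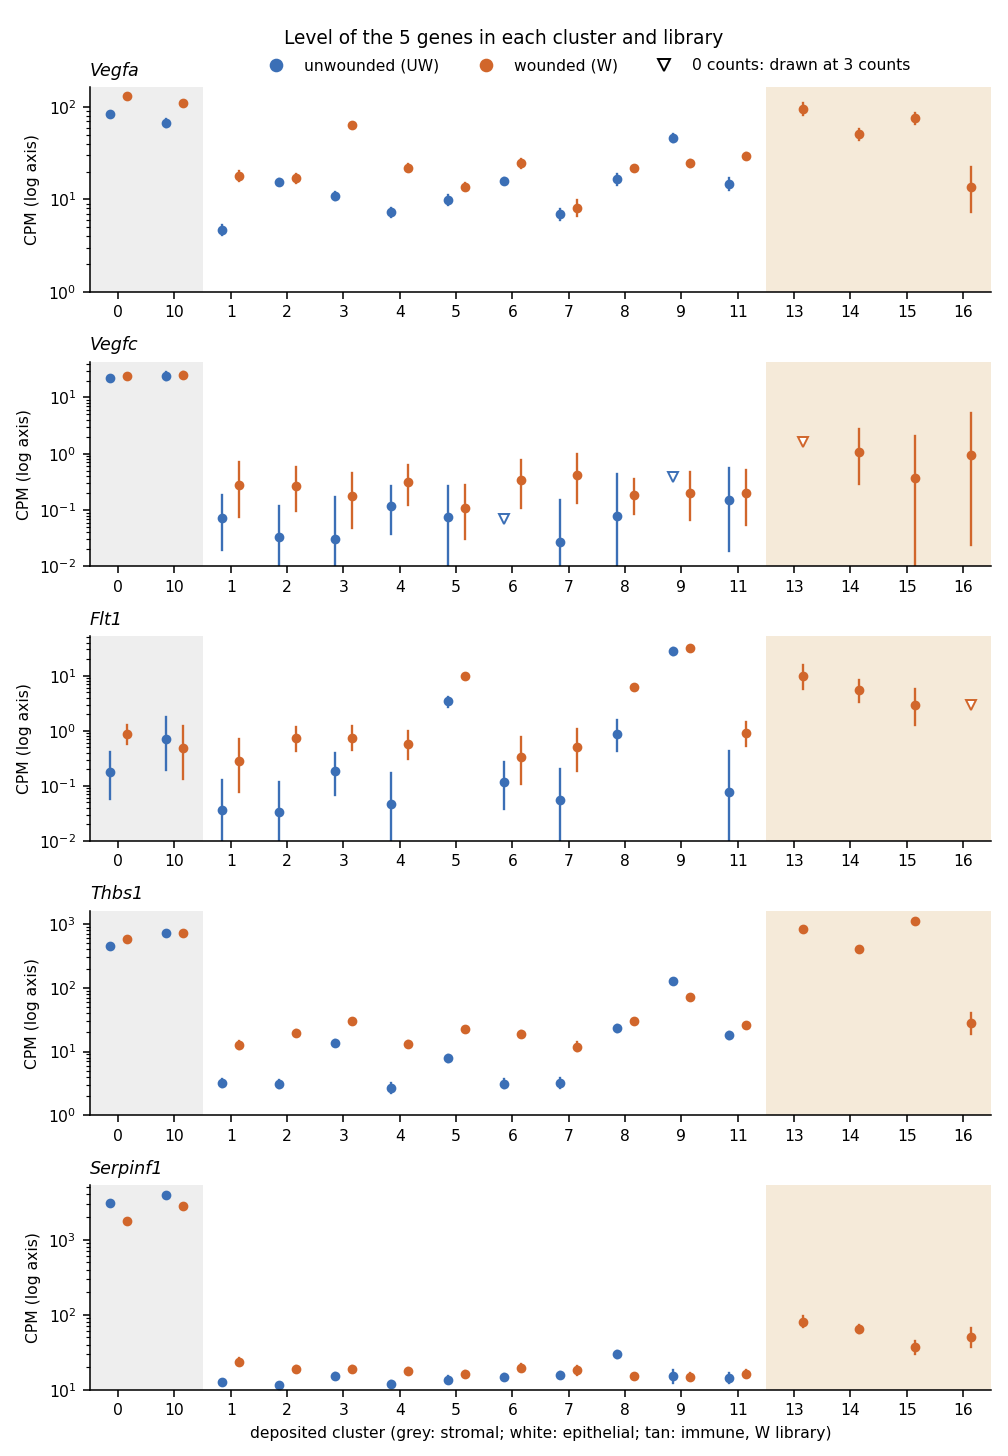
Level of each gene in CPM (log axis) in each deposited cluster of 50 or more cells, with exact Poisson 95% intervals, in the UW (blue) and W (orange) libraries. An open triangle marks a sum of 0, drawn at the level of 3 counts. *Vegfa* is spread over all clusters, *Vegfc* and *Serpinf1* are highest in clusters 0 and 10, *Flt1* in cluster 9, and *Thbs1* in clusters 0, 10, 13, 14 and 15.

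*Vegfc* was a stromal gene and was close in level by CPM in the 2 libraries there. Cluster 0 held 22.6 CPM (20.9 to 24.4) in UW and 24.1 CPM (22.4 to 25.8) in W, and cluster 10 held 24.3 and 25.1 CPM. The log2 ratios were 0.093 (-0.060 to 0.25) and 0.046 (-0.27 to 0.37), so by CPM a difference beyond counting error was not seen. The ratio in cluster 0 was 0.24 with TMM factors and 0.27 with size factors, and the bounds given hold for CPM alone. Thinned shares of cluster 0 cells with a UMI were 10.9% and 10.5%, while the unthinned 23.3% and 35.4% moved with depth. The stroma gave 97.7% of *Vegfc* UMIs in UW and 93.7% in W.

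In the whole epithelium there were 18 *Vegfc* UMIs in UW and 53 in W, 0.0541 and 0.222 CPM, a log2 ratio of 2.04 (1.24 to 2.90). Free stromal RNA alone was estimated at between 0.0667 and 0.100 CPM in UW and between 0.137 and 0.266 CPM in W. The measured epithelial levels lay under or inside those ranges and are read as background. The thinned shares of epithelial cells with a UMI were 0.0381% and 0.108%. The 710 neutrophil-like cells held 0 *Vegfc* UMIs, which allows up to 1.63 CPM (3 counts), and other immune clusters held at most 4 UMIs.

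*Flt1* was found mostly in 3 epithelial clusters. Cluster 9 held 27.7 CPM (24.1 to 31.7, 211 UMIs) in UW and 32.2 CPM (30.0 to 34.5, 801 UMIs) in W, a log2 ratio of 0.22 whose interval just included 0, and 0.35 with TMM factors. The conjunctival-like cluster 5 held 3.42 CPM (92 UMIs) in UW and 9.76 CPM (353 UMIs) in W, a log2 ratio of 1.51 (1.18 to 1.86). The dividing cells of cluster 8 held 0.860 CPM (11 UMIs) and 6.14 CPM (299 UMIs), a log2 ratio of 2.84 (1.98 to 3.85). Cluster 9 led in both libraries, and the ratios were larger in clusters 5 and 8, where *Flt1* was lower.

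The other epithelial clusters held at most 0.183 CPM of *Flt1* in UW and 0.904 CPM in W. Clusters 5, 8 and 9 together gave 91.5% of the *Flt1* UMIs of UW and 90.1% of those of W, with the share of cluster 9 at 61.5% and 49.7% and that of cluster 8 at 3.21% and 18.5%. After thinning, 10.9% of cluster 9 cells held an *Flt1* UMI in UW and 13.9% in W, 1.78% and 5.97% of cluster 5 cells, and 0.392% and 2.59% of cluster 8 cells, against 0.0431% and 0.351% in stromal cluster 0. Unthinned, cluster 9 had 20.2% and 39.6%, at median depths of 13944 and 24009 UMIs. In cluster 8 *Wfdc18* stood at 8.91 CPM in UW and 41.2 CPM in W, and the conjunctival keratin gene *Krt4* at 24.1 and 104.7 CPM. *Wfdc18* was higher in W in every cluster of at least 50 cells in both libraries, at 57.1 and 580.2 CPM in cluster 9 and 11.8 and 198.6 CPM in cluster 5. *Krt4* was higher in stromal cluster 0 as well, at 14.8 and 41.6 CPM. The part of either in the *Flt1* difference was not tested.

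Over the summed epithelium *Flt1* was 1.00 CPM in UW and 6.41 CPM in W, a log2 ratio of 2.68 (2.51 to 2.85). This sum was taken over clusters of unequal share, and with the W clusters weighted by their UMI shares in UW, an alternative added after the data were seen, the ratio was 1.15. Stromal *Flt1* was close to nil, with 5 UMIs in UW and 28 in W in cluster 0 (2.30, 0.90 to 4.03) and 4 UMIs in each library in cluster 10. In W, cluster 13 held 9.81 CPM (18 UMIs), cluster 14 5.43 CPM, cluster 15 2.95 CPM, and T-like cells 0 UMIs in 215 cells, which allows up to 1.40% of cells with a UMI (3 cells) and does not limit the share that express the gene. The immune levels were of the order of the 5.57 CPM of the whole W library. Free RNA of cluster 9, estimated from *Krt5* and *Krt12*, came to 13.7 to 84.3 CPM in cluster 13. It came to 16.3 to 142.2 CPM in cluster 14 and 4.59 to 29.3 CPM in cluster 15. Other epithelial clusters hold these keratins too, and for the W epithelium the same estimate was 43.3 to 290.5 CPM, above the 6.41 CPM measured. It thus sets no bound on *Flt1*, and whether the immune levels came from free RNA was not tested.

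*Flt1* is best known from vascular endothelium, so the libraries were searched for such cells. Cells with a UMI of at least 3 of *Pecam1*, *Cdh5*, *Tie1* and *Cldn5* numbered 4 of 16450 in UW and 4 of 12417 in W, and together they held 1 *Flt1* UMI in UW and 9 in W, the 9 in 1 cell. The 4 UW cells lay in epithelial clusters, and those of W in clusters 0, 2, 9 and 13. All 12 listed vascular genes together summed to 25.9 CPM in UW and 21.8 CPM in W, of which *Kdr* made 17.8 and 9.33 CPM. Of the 81 UW and 137 W cells with at least 3 of the 12 genes, 75 and 126 lay in stromal clusters 0 and 10. The 6 lymphatic genes summed to 0.918 and 1.52 CPM.

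**Figure D2:**
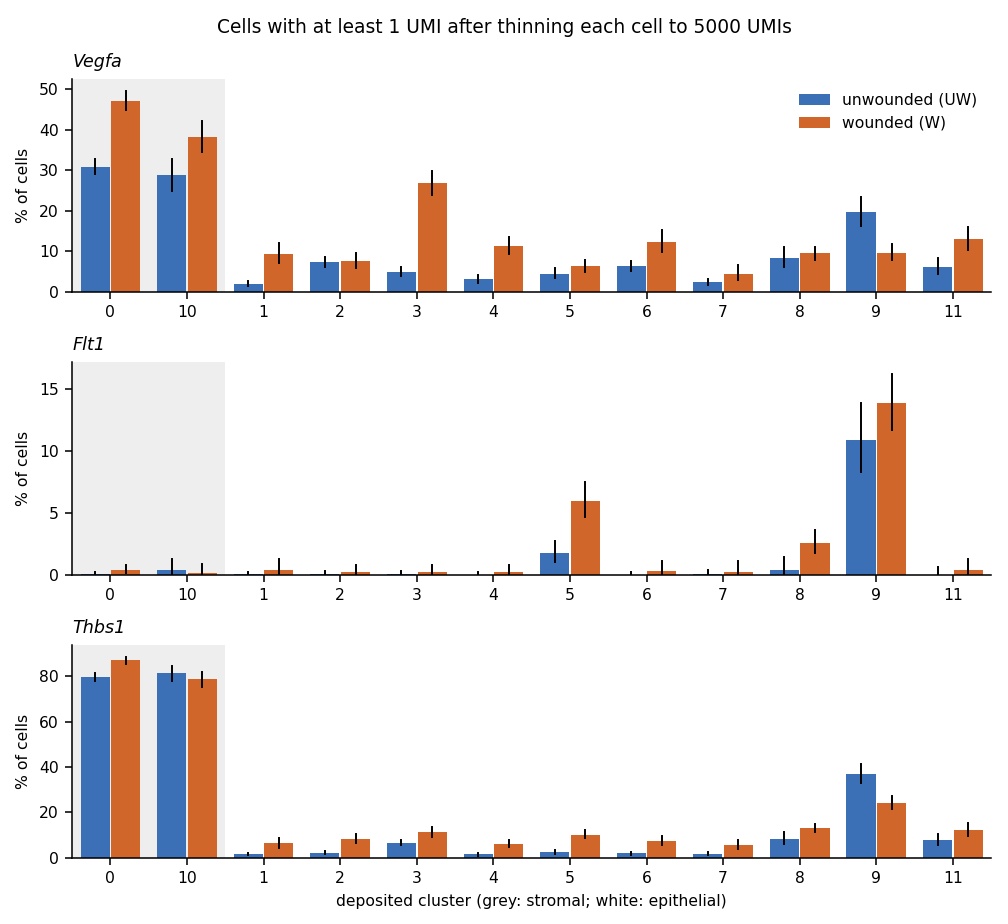
Percent of cells in each stromal and epithelial cluster with at least 1 UMI of *Vegfa*, *Flt1* or *Thbs1* after each cell was thinned to 5000 UMIs, in UW (blue) and W (orange). Black lines are exact Clopper-Pearson 95% intervals. *Vegfa* stands at 4.92% and 26.8% in cluster 3, and cluster 9 has 19.6% and 9.68% for *Vegfa*, 10.9% and 13.9% for *Flt1* and 37.0% and 24.2% for *Thbs1*.

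*Thbs1* was highest in the stroma and, in W, in immune clusters 13 to 15, and was higher in W in 9 of the 10 epithelial clusters. Cluster 0 held 457.6 CPM (449.8 to 465.5) in UW and 590.4 CPM (582.0 to 598.8) in W, a log2 ratio of 0.37 (0.34 to 0.40). Cluster 10 held 711.8 and 729.5 CPM, a ratio of 0.035 (-0.022 to 0.093). As a mean of the CPM of each cell the ratio in cluster 10 was -0.03, so no direction is read there. The thinned share of cluster 0 cells with a UMI was 79.7% in UW and 87.0% in W.

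Epithelial *Thbs1* was lowest in clusters 1, 2, 4, 6 and 7 of UW and several fold higher there in W. Cluster 2 (led by *Ly6g6c* and *Spink5*) stood at 3.11 and 19.7 CPM, a log2 ratio of 2.67 (2.42 to 2.92), cluster 6 at 3.15 and 18.8 CPM (2.58), cluster 4 at 2.69 and 13.3 CPM (2.31), cluster 1 at 3.19 and 12.5 CPM (1.97) and cluster 7 at 3.22 and 11.9 CPM (1.88). Cluster 5 stood at 7.83 and 22.5 CPM (1.52), cluster 3 at 13.8 and 29.7 CPM (1.11), cluster 11 at 18.0 and 25.8 CPM (0.52) and cluster 8 at 23.1 and 30.1 CPM (0.39). The 5 clusters with the least *Thbs1* in UW had the largest ratios, but their UW levels were only 1.45 to 1.86 times the upper estimate of free stromal RNA, so these ratios rest on levels near background.

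As for *Vegfa*, cluster 9 was the exception. Its *Thbs1* was the highest of the epithelium in both libraries, at 129.7 CPM (121.8 to 138.1) in UW and 70.8 CPM (67.6 to 74.2) in W, a log2 ratio of -0.87 (-0.99 to -0.76). The thinned share of its cells with a UMI was 37.0% in UW and 24.2% in W. The summed epithelium held 8.76 and 27.5 CPM, a log2 ratio of 1.65 (1.59 to 1.72), and with the W clusters weighted as in UW the ratio was 1.17.

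In W, cluster 15 held 1129.5 CPM of *Thbs1*, more than any stromal cluster, cluster 13 held 830.3 CPM and cluster 14 held 406.2 CPM, against 27.9 CPM in T-like cells. The thinned shares, here to 2000 UMIs, were 62.2%, 48.8%, 32.8% and 3.90%. Clusters 13 to 15 together gave 15.8% of the *Thbs1* UMIs of W, where the stromal share was 65.7% against 85.4% in UW. Free stromal RNA came to between 3.35 and 6.53 CPM of *Thbs1* in the W epithelium, under the 27.5 CPM measured. The margin was smaller in cluster 1, at 12.5 CPM in W against at most 9.30 CPM, and in cluster 7, at 11.9 CPM against at most 6.86 CPM. RNA freed from clusters 13 to 15, which were read in W alone, was not in that estimate.

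*Serpinf1* was the most abundant of the 5 genes and was lower in W in both stromal clusters. Cluster 0 held 3051 CPM (3031 to 3071) in UW and 1764 CPM (1750 to 1779) in W, a log2 ratio of -0.79 (-0.81 to -0.78). Cluster 10 held 3884 and 2849.6 CPM, a ratio of -0.45 (-0.47 to -0.42). Nearly every stromal cell held its message, with thinned shares from 99.5% to 100% in the 2 clusters and libraries, so these shares were saturated and the level alone is compared. The stromal genes used to trace free RNA were not steady either, with *Kera* at 7482 CPM in UW and 2537 CPM in W in cluster 0.

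Outside the stroma *Serpinf1* was mostly close to the level of free RNA. The epithelial clusters held between 11.5 and 29.7 CPM in UW and between 14.9 and 23.7 CPM in W, and their sum 14.1 and 17.4 CPM (0.30, 0.24 to 0.36). Free stromal RNA was estimated for the sum at between 9.01 and 13.5 CPM in UW and between 10.0 and 19.5 CPM in W. The largest epithelial differences were in cluster 1 (12.7 and 23.7 CPM, 0.90), inside its own estimate in both libraries, and in cluster 8 (29.7 and 15.2 CPM, -0.96), where the UW level lay above its estimate of at most 26.7 CPM. Without the cells called doublets in a first run of the doublet caller, the ratio in cluster 8 was -0.44. In W, clusters 13 (81.2 CPM) and 16 (52 UMIs) lay inside their estimates of free stromal RNA, of at most 103.6 and 61.9 CPM. Cluster 15 (37.3 CPM) lay at its upper estimate of 36.9 CPM, and cluster 14 (64.3 CPM, 56.4 to 73.0) lay above its own, of at most 49.8 CPM.

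**Figure D3:**
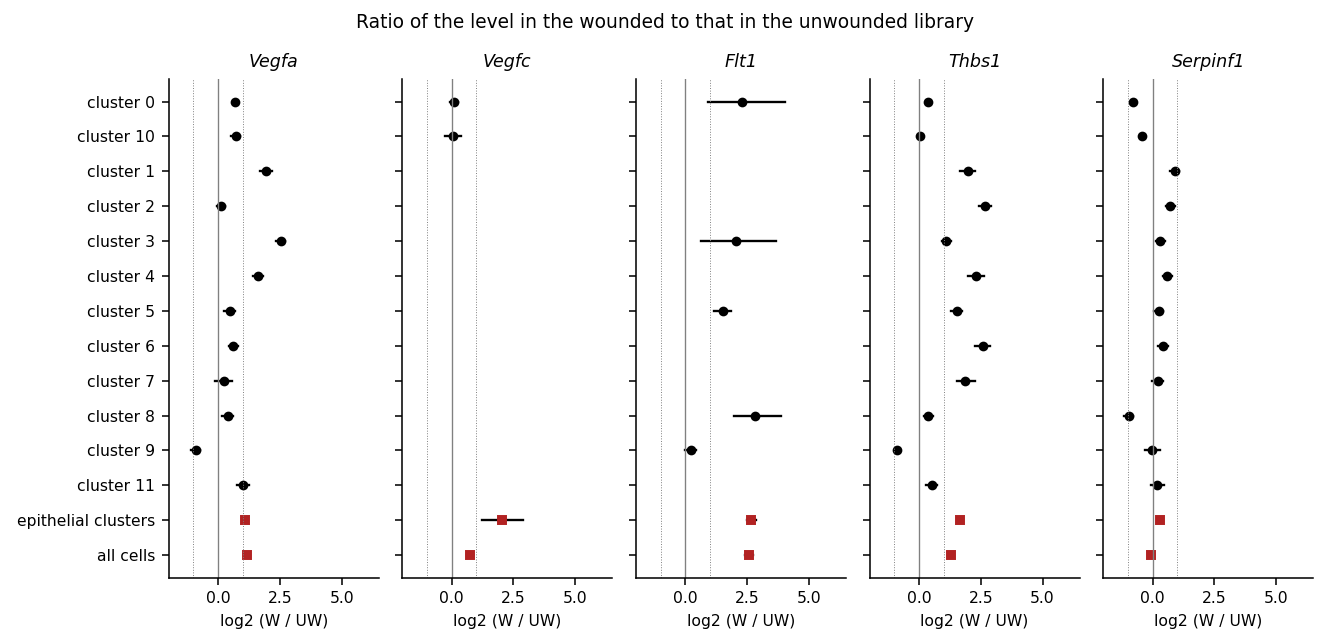
Log2 ratio of the level in W to that in UW for each gene in each cluster (black circles), the summed epithelium and all cells (red squares), with exact 95% intervals for counting error. Ratios with under 20 summed UMIs are not drawn, and dotted lines mark a ratio of 1 in either direction. *Vegfa* and *Thbs1* lie above 0 in most clusters and below 0 in cluster 9, at -0.91 and -0.87, and *Serpinf1* lies below 0 in clusters 0 and 10.

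In whole libraries, *Vegfa* was 18.0 CPM in UW and 40.3 CPM in W (1.16), *Vegfc* 2.18 and 3.65 CPM (0.75), *Flt1* 0.934 and 5.57 CPM (2.58), *Thbs1* 54.5 and 132.6 CPM (1.28) and *Serpinf1* 309.6 and 298.8 CPM (-0.051). These values also carry the makeup of the libraries. With the W clusters weighted by their shares in UW, the ratios were 0.87, 0.20, 1.16, 0.46 and -0.64, so that of *Serpinf1* lay near that of its stromal cells.

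The balance was also given as UMIs of an inhibitor or of *Flt1* per UMI of *Vegfa* within a cluster, which does not depend on depth or scaling. Capture differs between genes, so these ratios compare libraries and clusters, not amounts of protein. In cluster 0 there were 36.4 (34.9 to 37.9) *Serpinf1* UMIs per *Vegfa* UMI in UW but 13.3 in W (12.9 to 13.7), and in cluster 10 there were 57.8 and 25.9. *Thbs1* per *Vegfa* was 5.46 and 4.44 in cluster 0 and 10.6 and 6.64 in cluster 10. Both inhibitors were thus lower relative to *Vegfa* in the W stroma.

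In the summed epithelium *Serpinf1* per *Vegfa* was lower in W as in the stroma, at 1.22 (1.17 to 1.28) in UW and 0.716 (0.688 to 0.745) in W, on *Serpinf1* levels close to those of free RNA. *Thbs1* per *Vegfa* went the other way, at 0.759 (0.723 to 0.797) in UW and 1.14 (1.10 to 1.18) in W. The interval of *Thbs1* per *Vegfa* lay higher in W in clusters 2 (0.200 and 1.17), 4, 5 (0.790 and 1.63), 6 and 7, and lower in clusters 3 (1.26 and 0.470) and 11 (1.22 and 0.869). The intervals overlapped in clusters 1, 8 and 9 (2.81 and 2.88), and in cluster 9 both genes were lower in W. In clusters 2, 4, 6 and 7, *Thbs1* was 1.45 to 1.86 times the upper estimate of free stromal RNA in UW. In W it was 1.73 to 2.76 times that estimate, so the higher ratios of these clusters rest on levels near background. With the clusters weighted as in UW, the epithelial log2 ratios were 1.17 for *Thbs1* and 0.99 for *Vegfa*, closer together than the 1.65 and 1.07 of the plain sum. In cluster 9 there were 0.601 *Flt1* UMIs per *Vegfa* UMI in UW (0.504 to 0.715) against 1.31 in W (1.18 to 1.46). It was 0.345 and 0.707 in cluster 5 and 0.0519 and 0.283 in cluster 8. In cluster 9 of W, *Flt1* UMIs outnumbered those of *Vegfa*.

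**Figure D4:**
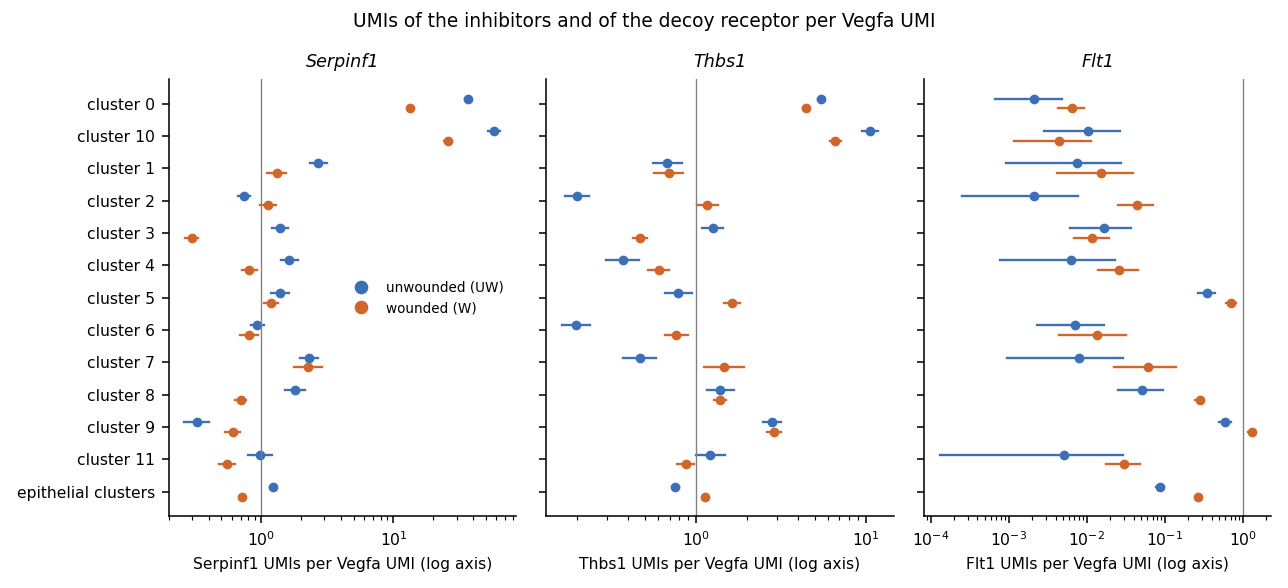
UMIs of *Serpinf1*, *Thbs1* and *Flt1* per UMI of *Vegfa* (log axes) in each cluster and in the summed epithelium, in UW (blue) and W (orange), with 95% intervals for counting error. *Serpinf1* per *Vegfa* is 36.4 and 13.3 in cluster 0, and *Flt1* per *Vegfa* is 0.601 and 1.31 in cluster 9.

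To set the 5 genes against all others, genes with at least 20 summed UMIs were counted as different where the log2 ratio was at least 1 in size. In the summed epithelium 4 of the 5 were higher by this measure and none lower. *Serpinf1* was the exception, and *Vegfc* was counted although its epithelial level was read as background. This stood against 21.8% higher and 8.77% lower of 16439 genes. That background was high, and with TMM scaling, which moved all epithelial ratios by -0.22, *Vegfa* was at 0.85 and 3 of the 5 passed. In cluster 0, 1 of the 5 was higher (*Flt1*, from 28 UMIs in W), against 7.34% higher and 9.67% lower of all genes. TMM scaling moved the cluster 0 ratios by 0.14, and with it 54.2% of the genes past the threshold were higher, against 43.1% by CPM. The split in the epithelium was 57.9% with TMM and 71.3% by CPM.

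In cluster 10 none of 4 tested genes passed in either direction (4.97% higher and 6.63% lower of all genes), although *Vegfa* and *Serpinf1* differed by more than counting error. In cluster 3, *Vegfa*, *Thbs1* and *Flt1* (from 6 UMIs in UW and 17 in W) of 4 tested were higher (15.1% and 11.1%). In cluster 5, *Flt1* and *Thbs1* of 4 were higher (12.7% and 7.47%), and in cluster 8 *Flt1* alone of 4 was (10.8% and 9.58%). In cluster 9 none of 4 passed (9.12% and 9.76%), since *Vegfa* and *Thbs1* were just short of it in the lower direction. TMM scaling moved the ratios of clusters 8, 9 and 10 by 0.11, 0.13 and 0.11, and 60.4% of the cluster 9 genes past the threshold were then higher, against 48.3%. The share was 53.0% against 42.8% in cluster 10.

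The VEGF family was taken as a list of ligands and receptors. Of 5 ligands in the table, 3 were higher in the summed epithelium and none lower, against 21.8% and 8.77% of all genes, with a list median of 1.07 against 0.22, but only *Vegfa* reached 20 CPM there. *Vegfb*, which acts on the heart and on lipid uptake more than on vessel growth, stood at 39.9 CPM in UW and 31.3 CPM in W in cluster 0 and at 27.0 and 13.6 CPM in cluster 3, where *Vegfa* was higher. In cluster 0, 2 of the 5 ligands were higher and none lower, against 7.34% and 9.67% of all genes, with a median of 0.67 against -0.15. These 2 were *Vegfd* (5.13 and 16.7 CPM) and *Pgf* (0.141 and 0.647 CPM, from 4 and 21 UMIs). Of the 3 ligands at 20 CPM or more there, 0 were higher.

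*Kdr* and *Nrp1* were abundant in the stroma of UW and lower in W. *Kdr*, the main signalling receptor of VEGF-A, was among the leading genes of cluster 0, at 216.1 CPM in UW and 72.6 CPM in W, a log2 ratio of -1.57. Its coreceptor gene *Nrp1* stood at 123.4 and 47.0 CPM (-1.39), while *Nrp2* stood at 117.6 and 148.3 CPM. In cluster 10 *Kdr* was 33.4 and 16.3 CPM and *Nrp1* 115.9 and 73.4 CPM. In all, 2 of 4 tested receptors were lower and 1 (*Flt1*) higher in cluster 0, against 9.67% lower and 7.34% higher of all genes, with a median of -0.53, against -0.15 for all genes. That median turned with the few genes in it, to 0.33 with a limit of 1 UMI and -1.39 with a limit of 100 UMIs. In cluster 10, 1 of 3 (*Kdr*) was lower by CPM, against 6.63% of all genes, and 0 with TMM or size factors. The epithelium held no receptor at 20 CPM in its sum, with 3 of 5 higher, against 21.8% of all genes, and a median of 1.65 against 0.22. In cluster 3 *Nrp2* was 3.36 and 23.5 CPM (2.81), 1 of the 2 receptors of 4 that were higher there, with 1 lower, against 15.1% and 11.1% of all genes. *Flt4*, the receptor of VEGF-C, was at 1.08 CPM or less in every cluster of at least 50 cells.

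Of the 19 inhibitors of angiogenesis in the table, 18 were tested in the epithelium, where 10 were higher and 2 lower, against 21.8% and 8.77% of all genes, with a median of 1.28 against 0.22. In cluster 0, 8 of 18 were higher and 2 lower, against 7.34% and 9.67%, with a median of 0.43 against -0.15. In cluster 10, 6 of 18 were higher and 3 lower, against 4.97% and 6.63%. Of the inhibitors at 20 CPM or more, 4 of 7 were higher and 0 lower in the epithelium. Those in cluster 0 were 3 of 11 higher and 1 lower, and those in cluster 10 were 3 of 13 higher and 3 lower. The interferon-induced chemokine gene *Cxcl10* had the largest difference in the stroma, at 3.16 CPM in UW and 126.2 CPM in W in cluster 0, a log2 ratio of 5.32 (5.02 to 5.64), and at 18.2 and 286.3 CPM in cluster 10 (3.97). *Isg15*, another interferon-induced gene, was 5.06 and 35.4 CPM in cluster 0 (2.80) and 75.4 and 197.2 CPM in the epithelium (1.39). These genes have other roles in immune defence besides slowing vessels.

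The largest epithelial difference among inhibitors was in *Igfbp3*, which binds insulin-like growth factors, at 1.62 CPM in UW and 29.3 CPM in W (4.18). In cluster 3 it was 0.275 and 72.0 CPM (8.03), where 10 of 16 inhibitors were higher and 2 lower, against 15.1% and 11.1% of all genes. In cluster 9 it was 37.0 and 99.9 CPM (1.43), where 6 of 15 were higher and 1 lower, against 9.12% and 9.76%. At 20 CPM or more, 3 of 6 inhibitors were higher and 1 lower in cluster 3, and 2 of 7 higher and 1 lower in cluster 9. *Col4a3*, whose product is cut into tumstatin, was 57.8 CPM in UW and 6.85 CPM in W in cluster 10 (-3.08). In cluster 10 the inhibitors past the threshold thus lay in both directions, with *Col4a3* lower and *Cxcl10* and *Isg15* higher, while *Serpinf1*, at -0.45, did not pass it.

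Of the genes for receptors and partners of thrombospondin-1 and PEDF, 3 of 13 were higher and none lower in the epithelium, near the 21.8% higher of all genes, with a median of 0.49 against 0.22. In cluster 0, 3 of 12 were higher and 1 lower, against 7.34% and 9.67% of all genes, and the median of -0.11 was 0.032 with TMM scaling. *Cd47*, a thrombospondin receptor, was 177.2 CPM in UW and 362.3 CPM in W in cluster 0 (1.03), and *Rpsa*, a ribosomal protein gene whose product also serves as a laminin and PEDF receptor, 1458 and 3010 CPM (1.05). *Sdc1*, a heparan sulfate proteoglycan, was 121.7 and 51.0 CPM there (-1.26). The integrin gene *Itga3* was 13.3 and 31.0 CPM in the epithelium (1.22). In cluster 10 none of 11 passed in either direction, against 4.97% higher and 6.63% lower of all genes, and in cluster 3, 2 of 10 were higher and 1 lower, near the 15.1% and 11.1% of all genes.

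Of the other angiogenic factors, 11 of 21 were higher and 2 lower in the epithelium, against 21.8% and 8.77% of all genes, with a median of 1.19 against 0.22. Of the 8 at 20 CPM or more there, 1 (*Ptn*) was higher and 0 lower. In cluster 0, 5 of 19 were higher and 4 lower, against 7.34% and 9.67%, and in cluster 10, 3 of 19 were higher and 4 lower, against 4.97% and 6.63%. *Ptn*, a heparin-binding growth factor, had opposite directions in the 2 tissues, at 8.67 CPM in UW and 52.5 CPM in W in the epithelium (2.60) and at 108.7 and 34.9 CPM in cluster 0 (-1.64). *Angptl4*, a regulator of lipoprotein lipase and of vessel leakage, was 1.58 and 23.4 CPM in cluster 10 (3.89) and 3.75 and 27.6 CPM in cluster 3 (2.88), where 9 of 16 factors were higher and none lower, against 15.1% and 11.1% of all genes. Of the 8 factors at 20 CPM or more in cluster 3, 2 were higher and 0 lower. *Fgf7*, a stromal growth factor for epithelium, was 9.56 and 29.3 CPM in cluster 0 (1.62), and *Ang*, which encodes angiogenin, 14.9 and 43.1 CPM (1.53). *Cyr61*, a matrix-associated factor, was the highest of the list, at 1188 and 968.6 CPM in cluster 10.

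*Vegfa* is a known target of hypoxia-inducible factors, and 25 genes of that response were compared. In the summed epithelium 8 were higher and 4 lower, against 21.8% and 8.77% of all genes, and the median of 0.086, under the 0.22 of all genes, was -0.13 with TMM scaling. In cluster 0, 2 of 24 were higher and 1 lower, against 7.34% and 9.67% of all genes, with a median of 0.21 against -0.15. With TMM or size factors, 5 were higher and 0 lower there. *Hk2*, a hexokinase gene, was 66.0 and 142.0 CPM there (1.10) and 48.2 and 264.5 CPM in cluster 10 (2.46). *Pfkfb3*, another glycolytic gene, was 25.3 CPM in UW and 6.97 CPM in W in the epithelium (-1.86), and the list held genes in both directions.

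In cluster 3, where *Vegfa* differed most, 9 of 25 hypoxia genes were higher and 4 lower, against 15.1% and 11.1% of all genes, with a median of 0.39 against 0.032. *Ddit4*, a stress-induced brake on mTOR, was 9.98 CPM in UW and 89.7 CPM in W (3.17), and *Ldha*, the lactate dehydrogenase gene, 329.7 and 696.9 CPM (1.08). Other genes, chosen after their values were seen, were *Bnip3* at 0.946 and 25.6 CPM (4.76), *Ndrg1* at 21.2 and 159.3 CPM (2.91), *Ankrd37* at 3.36 and 20.2 CPM (2.59) and the glucose transporter gene *Slc2a1* at 59.8 and 168.6 CPM (1.50). In the other direction, *Epas1*, which encodes HIF-2α, was 191.4 and 40.9 CPM (-2.23) and the prolyl hydroxylase gene *Egln3* 316.5 and 129.2 CPM (-1.29), while *Hif1a* was 127.9 and 125.9 CPM. *Ndrg1* went the opposite way in the summed epithelium, at 150.7 and 67.2 CPM (-1.16). In cluster 9, where *Vegfa* was lower in W, 2 of 25 were higher and 3 lower, near the 9.12% and 9.76% of all genes, with a median of -0.20 against -0.057.

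**Figure D5:**
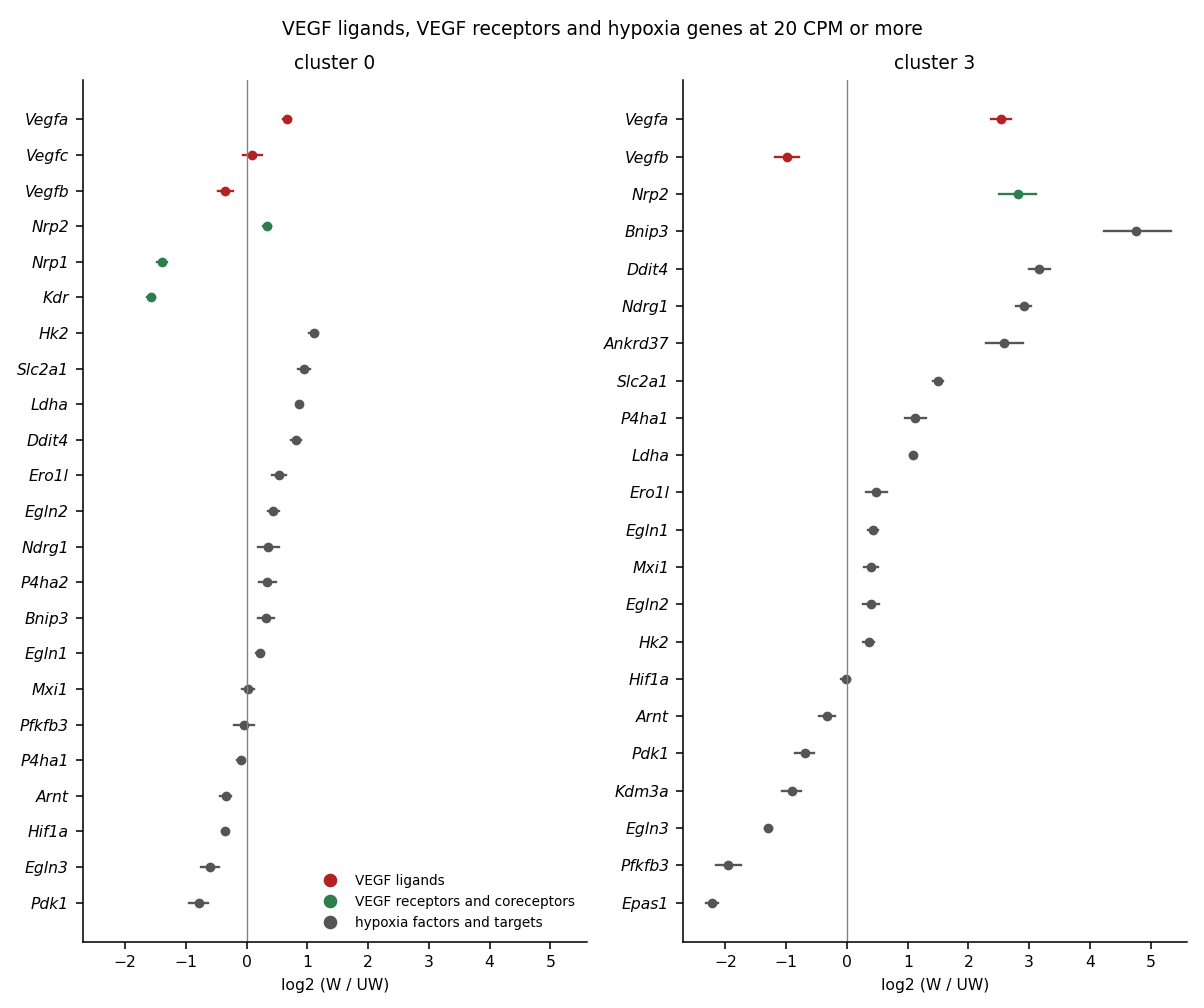
Log2 ratio of W over UW, with 95% intervals for counting error, of the VEGF ligands (red), VEGF receptors and coreceptors (green) and hypoxia genes (grey) at 20 CPM or more in either library in stromal cluster 0 (left) and epithelial cluster 3 (right). *Kdr* and *Nrp1* lie at -1.57 and -1.39 in cluster 0, and *Vegfa* at 2.53 in cluster 3, among hypoxia genes between -2.23 and 4.76.

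The genes nearest to each of the 5 in pattern were found by Pearson r of log2(CPM + 1) over 28 units of cluster and library, which share libraries, depth and free RNA. Those of *Serpinf1* were *Dcn*, *Bgn* and *Col1a2* (r of 1.00 each) and those of *Vegfc* were *Tenm3*, *Gsg1l* and *Map1a* (0.99 each), all highest in the stroma. *Vegfc* and *Serpinf1* had an r of 0.97 with each other. *Vegfa* was nearest to *Thbs1*, *Fblim1* and *Cpne2* (0.90 each), and *Thbs1* to *Cpne2*, *Selenon* and *Ctsz* (0.96 each). *Flt1* was nearest to *Sftpd* (0.94), *Esp6* (0.88) and *Car12* (0.87). By rank correlation 1 of the 3 genes stayed for *Vegfa*, *Flt1* and *Thbs1*, and none for *Vegfc* and *Serpinf1*.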

How the data were processed

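Each library pooled corneas of 4 mice, with 1 library per condition. Raw UMI counts were made by the authors in Cell Ranger 3.1.0 and deposited as such, beside a table with the library and cluster of every cell. They kept cells of 500 to 8000 genes with at most 10% mitochondrial UMIs and genes in at least 5 cells, and removed doublets. The deposited cells were fewer in each condition than the paper reports after these steps, for a reason not given. Of the deposited cells, 305 in UW and 164 in W carried a doublet call from a first run. The labels name mm9 and a v3 kit, the study's methods mm10 and a V2 kit, and positions here are from the GRCm38 annotation.

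Counts were summed per cluster and library, scaled to CPM, and given with exact Poisson, conditional binomial and Clopper-Pearson 95% intervals (Python 3.11.15, pandas 2.3.3, numpy 2.4.6, scipy 1.17.1, matplotlib 3.10.9). Shares of cells were also computed after thinning to 5000 UMIs (2000 in immune clusters), leaving out shallower cells. A sum of 0 was given the limit of 3 counts. Clusters were called epithelial where epithelial marker genes summed to at least 20000 CPM and above stromal and immune ones, a limit set after the values were seen. Scoring of fixed marker lists misnamed clusters 1, 3, 7, 8, 9, 10 and 11, which are called by number and leading genes. Cluster 17 (29 cells) entered no ratio.

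The 5 genes and all lists were chosen with earlier results of these data known. In each list, up to 4 genes with the largest ratio in the summed epithelium, cluster 0 or cluster 10 at 20 CPM or more, and the highest gene, were named, with the 3 genes most like each of the 5. Alternatives were TMM factors (edgeR 4.0.16), median-of-ratios size factors (DESeq2 1.42.0, both in R 4.3.3), leaving out the 50 most abundant genes, means of the CPM of each cell, a stricter filter on cells (1000 genes, 5% mitochondrial UMIs), leaving out first-run doublets, reweighting of clusters, and count limits of 1 and 100. The ratios were also tested on simulated data, the outcome of which is not given here and is not used in the results above.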

Additional observations from a re-analysis of the deposited data

Results flagged for a closer look

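*Vegfa*, *Thbs1* and *Serpinf1* had ratios of W over UW in opposite directions in different clusters of the same pair of libraries. The ratios given are those of at least 0.5 in size with an interval clear of 0 and a level of 20 CPM or more in at least 1 of the 2 libraries, and the difference was not tested, since each condition was 1 library. For *Vegfa* the log2 ratio was 0.67 in cluster 0, 0.71 in cluster 10, 2.53 in cluster 3, 1.60 in cluster 4, 0.62 in cluster 6 and 1.00 in cluster 11, against -0.91 in cluster 9. For *Thbs1* it was 1.11 in cluster 3, 1.52 in cluster 5 and 0.52 in cluster 11, against -0.87 in cluster 9. For *Serpinf1* it was 0.90 in cluster 1, against -0.79 in cluster 0 and -0.96 in cluster 8, and in clusters 1 and 8 the levels were close to those of free stromal RNA.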

How the results depend on the processing

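No direction of a log2 ratio of the 5 genes in the epithelium, in cluster 0 or in the whole library was reversed under any alternative that was run. Medians of short lists did turn, such as that of the hypoxia genes in the epithelium (0.086 by CPM and -0.13 with TMM) and that of the receptors in cluster 0 (-0.53, and 0.33 with a limit of 1 UMI). No paired analysis was possible because each condition was 1 library, and no library could be left out. With TMM factors the epithelial ratios were 0.85 for *Vegfa*, 2.46 for *Flt1*, 1.44 for *Thbs1* and 0.081 for *Serpinf1*, and in cluster 0 they were 0.81 for *Vegfa*, 0.51 for *Thbs1* and -0.65 for *Serpinf1*. With size factors the epithelial ratios were 0.84, 2.44, 1.42 and 0.065 in the same order, and in cluster 0 they were 0.84 for *Vegfa*, 0.27 for *Vegfc*, 0.54 for *Thbs1* and -0.62 for *Serpinf1*. Without the 50 most abundant genes the epithelial ratios were 0.96 for *Vegfa*, 1.54 for *Thbs1* and 0.19 for *Serpinf1*, with 0.31 for *Thbs1* and -0.85 for *Serpinf1* in cluster 0. As means of the CPM of each cell they were 2.13 for *Flt1*, 1.33 for *Thbs1* and 0.41 for *Serpinf1* in the epithelium, and 0.41 for *Thbs1* and -0.68 for *Serpinf1* in cluster 0. The stricter filter gave 1.74 for epithelial *Thbs1*. Reweighting to the UW clusters gave 0.99 for *Vegfa*, 1.15 for *Flt1*, 1.17 for *Thbs1* and 0.44 for *Serpinf1* in the epithelium, and 0.87, 0.20, 1.16, 0.46 and -0.64 for *Vegfa*, *Vegfc*, *Flt1*, *Thbs1* and *Serpinf1* in the whole library. The shifts under scaling were common to all genes, and the cause of the others was not tested.

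Of the counts of list genes, a limit of 100 UMIs left higher in W 1 ligand in the epithelium, and in cluster 0 1 ligand, 0 receptors, 5 inhibitors and 1 hypoxia gene. It left 0 hypoxia genes lower in cluster 10, and 1 receptor higher and 0 lower in cluster 3. With a limit of 1 UMI, cluster 10 had 1 receptor higher and 1 partner of the inhibitors in each direction, and cluster 3 had 3 ligands and 4 partners higher, and 4 inhibitors, 2 partners and 1 other factor lower. In cluster 9 that limit gave 6 of 18 inhibitors higher and 3 lower. These limits change which genes were counted. With TMM or size factors, 2 ligands were higher in the epithelium, 5 hypoxia genes were higher and 0 lower in cluster 0, 1 ligand was higher and 0 receptors lower in cluster 10, and 1 ligand was lower and 1 partner higher in cluster 3. *Vegfc* and stromal *Flt1* rest on a few UMIs outside their main clusters. Shares of cells moved with thinning for every gene.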

Other observations

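*Pgf*, the placental growth factor and a ligand of FLT1, stood at 91.7 CPM (338 UMIs) in the unnamed immune cluster 14 of W, led by *Cd209a*, *Mgl2* and MHC class II genes, where *Flt1* was at 5.43 CPM. Cluster 17, with 29 cells in W and none in UW, held 153.8 CPM of *Vegfa*, 898.6 CPM of *Thbs1* and 1651 CPM of *Serpinf1*, and too few cells for a comparison.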
